A study of Mus musculus with 8 samples.

Results

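The regions described here were 2724 peaks of EHMT2 in mouse embryonic stem cells (mESCs) that lay in unique sequence and had no peak of the same tag after EHMT2 was degraded. They were chosen by peak calls: a peak of the C29F4 DMSO list was a member when it overlapped a peak of the ab9110 DMSO list by 1 bp or more, overlapped no peak of the ab9110 dTAG list, lay on chromosomes 1 to 19, X or Y, and had under 50% of its bases soft-masked as repeats in mm10. Of the 11010 C29F4 peaks, 5079 (46.1%) had the same pattern of calls, and of the 6046 C29F4 peaks in unique sequence, 2724 (45.1%) did. These calls made the rule, so the shares describe the choice and test nothing. All 4 peak lists together held 70200 peaks.

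EHMT2-dTAG mESCs of a BL6/129 hybrid background carried the degron tag FKBP12F36V, HA tags and an mCherry reporter at endogenous Ehmt2 in the controls and the treated cells alike. With the HA antibody C29F4, ChIP was performed in 2 samples after 24 h of DMSO, which the methods describe as independent clones, and both were merged into 1 peak list. With the HA antibody ab9110, a separate experiment had 1 ChIP sample after 24 h of DMSO and 1 after 24 h of dTAG, and each ChIP sample had an input of chromatin without pulldown. Each condition was thus represented by 1 list, no difference between lists had a replicate check, and the 95% intervals below (exact Clopper-Pearson) cover counting error only.

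EHMT2, also known as G9a, pairs with EHMT1 (GLP) to place mono- and dimethylation on lysine 9 of histone H3, a mark of silenced chromatin. It has no sequence-specific DNA-binding domain and is brought to sites by partners such as zinc-finger proteins. REST is a zinc-finger repressor that silences neuronal genes outside neurons, binds a long element called RE1, and is known to recruit EHMT2 among other corepressors.

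Many of the dTAG-sensitive unique peaks held this element. The long RE1 searched here, TTCAGCACCNNGGACAGCGCC, has 19 fixed letters over 21 bases, and up to 4 mismatches were allowed on either strand of the 300 bases around each C29F4 summit. It was present in 284 of 2724 members, 10.4% (9.30 to 11.6). Of the windows 2 kb to either side of the same summits, 4 of 5448 held it, 0.0734%, and so did 75 of 32851 RefSeq promoters of the same length, 0.228%. The windows beside the summits were not limited in soft-masked bases. Of the 4317 among them under 50% soft-masked, 4 held it, 0.0927% (0.0253 to 0.237). The 13 elements below belong to members with the fewest mismatches, the highest C29F4 folds or a position at a gene start, as described in the next paragraphs. Each is read 5′ to 3′ on the strand given, with 20 bases on either side, from GRCm38 (the assembly of mm10). Capitals mark letters equal to the fixed letters of the long RE1.
Rapgef1 upstream, chr2:29573750-29573810, plus strand: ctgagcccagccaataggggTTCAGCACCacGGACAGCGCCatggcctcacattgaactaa
Lingo1 intron, chr9:56738428-56738488, minus strand: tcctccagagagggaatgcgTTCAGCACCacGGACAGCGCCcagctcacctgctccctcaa
Cpz upstream, chr5:35531797-35531857, minus strand: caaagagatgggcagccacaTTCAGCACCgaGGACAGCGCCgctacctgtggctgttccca
Kcnk9 and Trappc9 locus, chr15:72568685-72568745, minus strand: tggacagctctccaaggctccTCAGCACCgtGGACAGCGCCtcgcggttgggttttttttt
Npas4 intron, chr19:4989140-4989200, plus strand: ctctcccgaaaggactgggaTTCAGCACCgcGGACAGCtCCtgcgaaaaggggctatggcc
Ephb1 intron, chr9:102066716-102066776, plus strand: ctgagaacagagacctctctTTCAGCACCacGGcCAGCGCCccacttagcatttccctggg
Rbfox3 intron, chr11:118585047-118585107, minus strand: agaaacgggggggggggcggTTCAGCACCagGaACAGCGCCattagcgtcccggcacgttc
Pkdcc upstream, chr17:83010995-83011055, minus strand: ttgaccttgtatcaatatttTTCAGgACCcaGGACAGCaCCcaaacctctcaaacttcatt
Dlgap3 intron, chr4:127173692-127173752, minus strand: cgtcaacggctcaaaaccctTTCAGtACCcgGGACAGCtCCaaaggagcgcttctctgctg
Drd2 intron, chr9:49341176-49341236, minus strand: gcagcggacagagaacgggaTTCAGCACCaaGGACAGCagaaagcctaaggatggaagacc
Krt86 upstream, chr15:101473095-101473155, plus strand: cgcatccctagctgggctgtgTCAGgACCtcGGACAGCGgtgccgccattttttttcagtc
Igsf21 upstream, chr4:140259102-140259162, minus strand: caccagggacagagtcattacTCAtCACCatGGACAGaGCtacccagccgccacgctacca
L1cam intron, chrX:73869517-73869577, minus strand: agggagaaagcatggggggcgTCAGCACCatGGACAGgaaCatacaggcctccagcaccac

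Members without mismatch lay 45909 bp upstream of Rapgef1 (a guanine nucleotide exchange factor), in an intron of Lingo1 (a neuronal leucine-rich repeat receptor) and 6202 bp upstream of Cpz (a carboxypeptidase). They were not the strongest peaks. Their C29F4 fold enrichment, the deposited ratio of pileup over background at the highest point of a peak, was 4.24 at Rapgef1, 3.09 at Lingo1 and 2.82 at Cpz, beside a median of 3.69 over all members. With 1 mismatch or none there were 18 members, with up to 2 mismatches 93, and with up to 3 mismatches 184.

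Over the 284 elements, some letters of both parts were almost fixed. The A at position 7 and the A at position 16, counted from 1 at the 5′ end of the element, were present in 100% of them, the C at position 8 in 99.3% and the G at position 13 in 98.6%. The letters that varied most were the G at position 19, present in 44.4%, and the first T, in 57.0%, and the C at position 6 was present in 69.0%. Because the mismatch limit chose these elements, the letter shares describe them and test nothing.

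**Figure D1:**
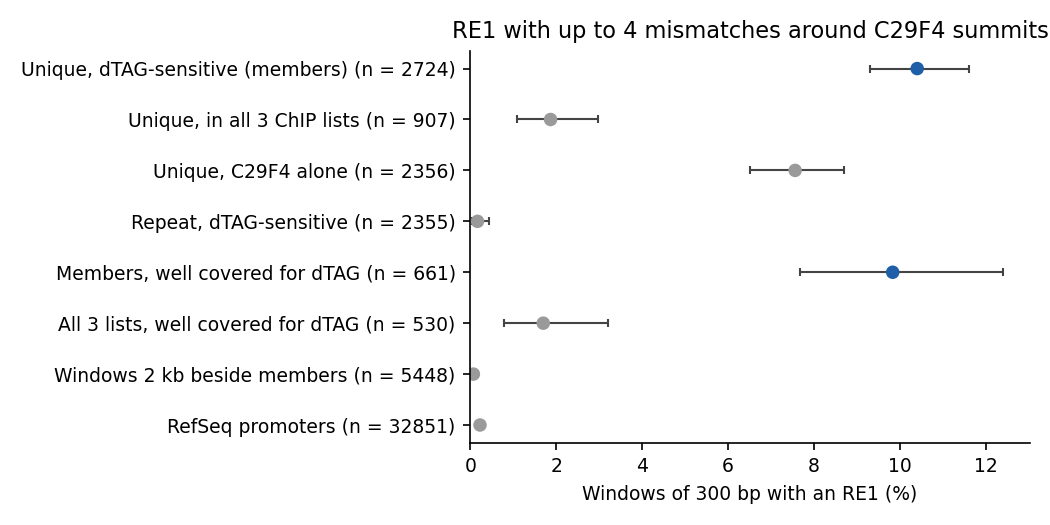
Share of 300 bp windows with a long RE1 (up to 4 mismatches), in percent, with exact 95% intervals as bars and the number of windows beside each name. Members and the C29F4-alone class lie far to the right of the promoters and of the windows 2 kb beside the members, with 10.4% and 7.56%, and peaks of all 3 ChIP lists lie at 1.87%. "Well covered for dTAG" marks peaks whose ab9110 DMSO summit had a computed chance of a call at the dTAG coverage of 0.95 or more.

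The element was less frequent in unique peaks that were called in both treatments. Of 907 unique C29F4 peaks that overlapped both ab9110 ChIP lists, 17 held a long RE1, 1.87% (1.10 to 2.98). This interval, of counting error only, did not overlap that of the members. Unique peaks of the C29F4 list alone held it in 178 of 2356, 7.56% (6.52 to 8.70). Peaks with the same calls as the members but in soft-masked sequence held it in 4 of 2355, 0.170%. The same order was seen with positions 4 to 17 of the element (AGCACCNNGGACAG) without any mismatch, which was present in 4.11% of members (3.40 to 4.93), 0.772% of peaks in all 3 ChIP lists (0.311 to 1.58), 2.80% of C29F4-alone peaks, 0.0184% of the windows beside and 0.0517% of promoters.

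Seen the other way, 301 unique peaks of both DMSO lists held a long RE1, and 94.4% of these (91.1 to 96.7) were members. Of the 3330 without the element, 73.3% (71.7 to 74.8) were members. Peaks with the element were thus more often absent from the dTAG list, by non-overlapping intervals. The intervals cover counting error over peaks only. No replicate check of absence after dTAG was possible, so an effect of the treatment was not tested. The higher share was also present among peaks with a high computed chance of a call at the dTAG coverage, described next.

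Absence from the dTAG list is a statement about calls, and coverage moved with it. The mean fragment coverage was 3.64 for C29F4, 2.11 for ab9110 DMSO and 1.23 for ab9110 dTAG, or 58.2% of the ab9110 DMSO coverage. For each of the 3631 unique peaks in both DMSO lists, the chance of a call at that coverage was computed by binomial thinning of the fragments at the ab9110 DMSO summit, with a call at a −log10 p of 4.28, the lowest of the dTAG list. By this calculation 2431 of them (66.9%) would be called at the dTAG coverage, and 907 were. These are the calls that made the rule, from 1 library each, and the calculation makes no allowance for a difference in pulldown or for summits chosen by their DMSO call, so the numbers are a description and no test of the label "dTAG-sensitive". The mean chance over members was 61.2%, and 661 members (24.3%) had a chance of 0.95 or more. For the others, a loss of EHMT2 binding and the lower coverage of the dTAG library cannot be told apart peak by peak. For the 661 too, a loss at a single peak cannot be told apart from other differences between the 2 libraries, such as pulldown.

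**Figure D2:**
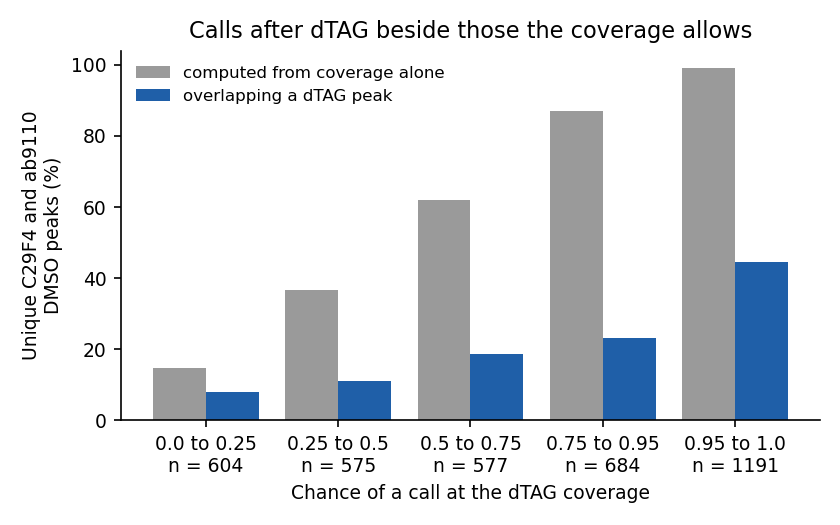
Share of the 3631 unique peaks of both DMSO lists that overlapped a dTAG peak (blue), beside the share computed from the dTAG coverage alone (gray), in 5 bins of the computed chance. The blue bars rise from 7.95% to 44.5% and stay below the gray bars, which rise from 14.6% to 99.0%.

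In the bin with the lowest chances, up to 0.25, 7.95% of 604 peaks were seen after dTAG, against 14.6% computed. In the bin from 0.5 to 0.75, 18.7% of 577 peaks were seen, against 61.9% computed. In the highest bin, from 0.95, 44.5% of 1191 peaks were seen, against 99.0% computed. Peaks with strong ab9110 DMSO summits were thus seen more often than weak ones, and every bin lay below the share computed. In this highest bin, members held a long RE1 in 65 of 661, 9.83% (7.67 to 12.4), and peaks of all 3 ChIP lists in 9 of 530, 1.70% (0.779 to 3.20). Of the 74 peaks of that bin with the element, 87.8% (78.2 to 94.3) were members, and of the 1117 without it, 53.4% (50.4 to 56.3).

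The rule kept members from overlapping a dTAG peak, and the median gap to the nearest was 52024 bp, against 65080 bp for C29F4-alone peaks and 89641 bp for dTAG-sensitive peaks in soft-masked sequence. No dTAG peak lay within 1 kb of 2583 members (94.8%), within 10 kb of 2217 (81.4%) or within 100 kb of 867 (31.8%). A peak of the dTAG input overlapped 11 members, 0.404%. The rule also asked for overlap with an ab9110 DMSO peak, which limits how far apart the DMSO summits of both antibodies could lie. Within that limit their median distance was 90.0 bp, with 1472 members (54.0%) within 100 bp. By the same rule every member was covered in part, and ab9110 DMSO peaks covered 50% or more of the bases of 2346 members (86.1%). These values describe the choice and are no test of agreement between the antibodies.

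The C29F4 fold of the members ranged from 1.89 to 34.7, with quartiles of 3.01 and 4.73 around the median of 3.69. The ab9110 DMSO fold ranged from 2.17 to 28.1 with a median of 3.96. Folds of the 2 lists come from libraries of different depth, so they are given side by side and were not tested against each other. The median member was 492 bp wide and 13.5% soft-masked, and its summit window had 46.0% GC.

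**Figure D3:**
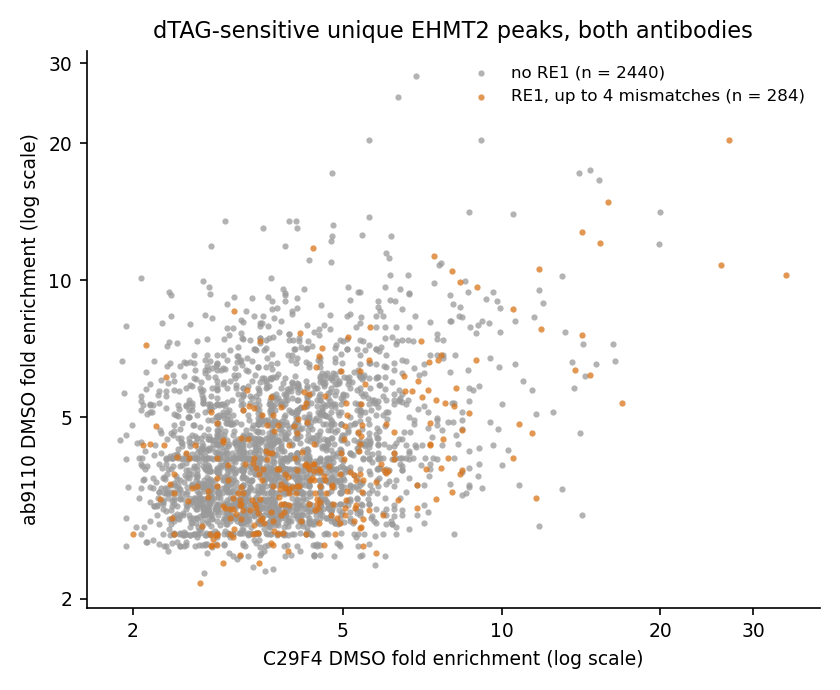
C29F4 DMSO fold (x) and ab9110 DMSO fold (y), both on log axes, for the 2724 members, with members that hold a long RE1 in orange (n = 284) and the others in gray (n = 2440). The orange points extend furthest to the right, up to a C29F4 fold of 34.7, and the highest ab9110 fold, 28.1, is a gray point.

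Members with a long RE1 had a median C29F4 fold of 4.24 (quartiles 3.38 and 5.44), and members without it 3.67 (2.99 and 4.64). Their ab9110 DMSO folds were 3.78 and 4.02. The median with the element was thus higher for C29F4 and lower for ab9110, a description on values that entered the rule. In deciles of C29F4 fold, the share with the element was 6.59% (3.95 to 10.2) in the lowest, 15.1% (11 to 19.9) in the ninth and 20.5% (15.9 to 25.8) in the highest. In deciles of ab9110 DMSO fold it was 13.9% (10.0 to 18.6) in the lowest and 10.6% (7.23 to 14.9) in the highest, and these intervals overlap.

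The search for the RE1 took in only the 300 bases around the C29F4 summit, which bounds its distance from the summit. No comparison with even placement in the window was made. The center of the element was at a median of 56.0 bp from the C29F4 summit, and in 128 members (45.1%) within 50 bp. In 242 (85.2%) it was also inside the window around the ab9110 DMSO summit, at a median of 59.0 bp, a distance bounded in the same way. Members with the element also had the summits of both antibodies closer together, with a median of 46.0 bp (quartiles 21.8 and 101) against 97.0 bp (42.0 and 202) in members without it. The element was on the plus strand in 134 members and on the minus strand in 150, and only 10 of the 284 elements touched a soft-masked base.

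**Figure D4:**
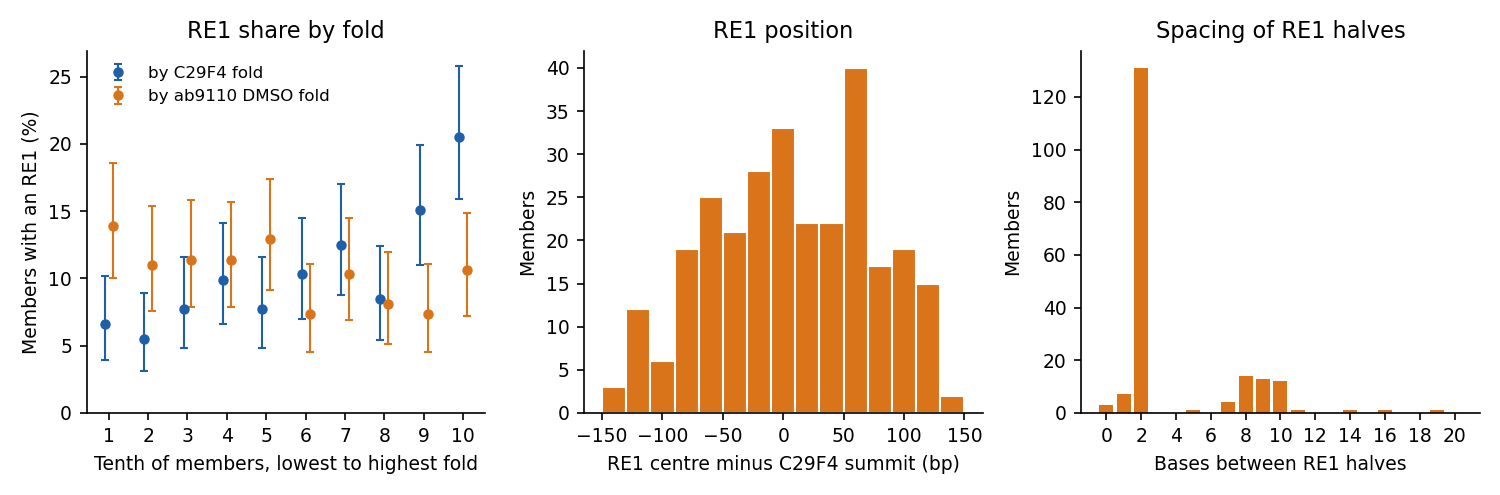
Left, share of members with a long RE1 in each decile of C29F4 (blue) and ab9110 DMSO fold (orange), with exact 95% intervals, which reaches 20.5% in the highest C29F4 decile. Middle, members by distance of the RE1 center from the C29F4 summit in bp, within the 300 bases searched. Right, members by the number of bases between the left and the right part of RE1, with 131 members at 2 bases and a lower group of 38 members at 8 to 10 bases.

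REST is known to bind its left and right parts at the usual spacing and also at wider spacings. When the left part (positions 1 to 9, up to 1 mismatch) and the right part (positions 12 to 21, up to 2 mismatches) were searched in the same orientation with 0 to 20 bases between them, 131 members had them 2 bases apart. At 8, 9 and 10 bases apart there were 14, 13 and 12 members, 38 in all, of which 3 also held a long RE1. Every other spacing had at most 7 members. In the 5448 windows beside, 1 had a spacing of 2 bases and 0 had one of 8 to 10 bases, which allows a share of up to 0.0551%. The wider group adds members that the long RE1 does not count.

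Of the 8 members with the highest C29F4 fold, 4 held a long RE1. The highest was in an intron of Celf4, a neuronal RNA-binding protein, on chromosome 18 (25667720 to 25668782), with folds of 34.7 (C29F4) and 10.3 (ab9110 DMSO) and an element with 4 mismatches. No dTAG peak lay within 100 kb of it.

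The next was at chr15:72568200-72569641 between Trappc9 and Kcnk9 (a potassium leak channel), 22403 bp upstream of the Kcnk9 start. It had folds of 27.0 and 20.3 and an element with 1 mismatch, 28 bp from the summit. The member 12399 bp upstream of Igsf21, a synaptic adhesion molecule, at chr4:140258760-140259689, had folds of 26.1 and 10.8 and an element with 4 mismatches. The member at chr17:83010669-83011614, 204257 bp upstream of Pkdcc (a secreted kinase), had folds of 16.9 and 5.38 and an element with 2 mismatches, 10 bp from the summit. At each of the 4 members the computed chance of a call at the dTAG coverage was 99.4% or more, and no dTAG peak overlapped.

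The other 4 of these 8 members held no long RE1, and short sequences were present in them in several copies. Copies were also present in the group with the element, as 3 of GGACAGC between Trappc9 and Kcnk9 and as a unit of 106 bases upstream of Igsf21. The windows of 150 bases around their summits are shown because the copies can be read in them; the letters are from the plus strand of GRCm38, and capitals mark the right part of RE1 without its last letters, GGACAGC or GCTGTCC on the other strand, and in the Gm43218 window also the core AGCACCNNGGACAG on the minus strand.
Gm33340 intron, chr12:42972906-42973055, plus strand: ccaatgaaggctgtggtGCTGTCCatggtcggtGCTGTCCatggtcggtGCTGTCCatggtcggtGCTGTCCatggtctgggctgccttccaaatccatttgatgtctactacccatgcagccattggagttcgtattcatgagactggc
distal to Nphp4, chr4:152799558-152799707, plus strand: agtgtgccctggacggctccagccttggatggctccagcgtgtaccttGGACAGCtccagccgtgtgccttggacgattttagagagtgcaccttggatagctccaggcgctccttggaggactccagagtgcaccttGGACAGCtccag
Gm43218 locus, chr6:70237204-70237353, plus strand: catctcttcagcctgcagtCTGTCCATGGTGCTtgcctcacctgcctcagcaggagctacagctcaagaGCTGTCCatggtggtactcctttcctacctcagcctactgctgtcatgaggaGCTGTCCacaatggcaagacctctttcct
Olfr281 upstream, chr15:98448568-98448717, plus strand: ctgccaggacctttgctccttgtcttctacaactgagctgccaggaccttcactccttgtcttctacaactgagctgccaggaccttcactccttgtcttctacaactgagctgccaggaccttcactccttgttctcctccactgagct

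The first lies in an intron of the long noncoding RNA Gm33340 and had folds of 20.0 and 14.1, with 4 copies of GGACAGC in a unit of 16 bases. The second, 236450 bp from Nphp4 (a protein of the cilium base), had folds of 19.9 and 12, with 3 copies in the 300-base window. The third, at the Gm43218 locus, had folds of 16.3 and 7.24, with 3 copies. The last, 3945 bp upstream of the olfactory receptor gene Olfr281, had folds of 16.4 and 6.64 and a unit of 37 bases without the RE1 part.

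Over all members, 3 or more copies of GGACAGC were found in 30, 1.10% (0.744 to 1.57). Of these, 17 were among the 273 members of the highest C29F4 decile, 6.23% (3.67 to 9.78), and 13 among the other 2451, 0.530% (0.283 to 0.905). They were found in 3 of 907 peaks of all 3 ChIP lists, 0 of 2356 C29F4-alone peaks and 0 of 5448 windows beside. Of the dTAG-sensitive peaks in soft-masked sequence, 6 of 2355 had them, 0.255% (0.0936 to 0.554). GGACAGC in any number of copies was in 14.5% of members and in 39.6% of those soft-masked peaks, of which 0.170% held a long RE1. The word is thus not particular to the members or to peaks with a long RE1. Repeated units of any sequence, with 75% or more of 60 bases equal after a shift of 10 to 120 bases, were in 4.30% of members (3.56 to 5.13), 2.5% of C29F4-alone peaks (1.91 to 3.22), 2.43% of peaks in all 3 lists (1.53 to 3.65) and 6.09% of the windows beside, which were not limited in soft-masked bases. In the dTAG-sensitive peaks in soft-masked sequence they were in 6.03% (5.10 to 7.07). In the highest C29F4 decile of members they were in 8.79% (5.71 to 12.8), against 3.79% (3.07 to 4.63) in the other members. Strong members thus held both repeated units and copies of this part more often than the rest. Reads from repeated copies could have been assigned to any of them, and 91 members (3.34%) shared a run of 50 bases with another member, 4 of these with a long RE1. These counts were chosen after the sequences of the strongest members had been seen.

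Members within 1 kb of a protein-coding start numbered 194, 7.12%, and the 10 with the highest C29F4 fold included 5 with a long RE1. Npas4, a transcription factor that neurons induce on activity, had a member in an intron 682 bp past its start, with folds of 10.8 (C29F4) and 4.84 (ab9110 DMSO). Dlgap3, a postsynaptic scaffold protein, had folds of 7.26 and 5.74. Drd2, a dopamine receptor, had folds of 6.10 and 3.82, and L1cam, a neural adhesion molecule, 5.97 and 3.05. The chance of a call at the dTAG coverage was 92.7% at Drd2 and 9.71% at L1cam, so that a loss at L1cam was not detectable at this depth. The hair keratin gene Krt86, with 13.8 and 6.36, also had an element, 70 bp from a summit that lay 283 bp upstream of its start.

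The other 5 of these starts held no long RE1. The highest was Mrpl3, a mitochondrial ribosomal protein, with folds of 14.7 and 17.5 at 78 bp upstream of the start. Scml2, a Polycomb-associated protein on the X chromosome, had 12 and 8.90. The transcription factor gene Insm2 had 7.04 and 3.93, the actin-binding coronin gene Coro2b had 6.89 and 4.31, and 4933407L21Rik had 6.68 and 5.00.

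The members with the highest ab9110 DMSO fold differed from those with the highest C29F4 fold, and 1 of 5 held a long RE1. An intron of Ust (a sulfotransferase of glycosaminoglycans) had an ab9110 fold of 28.1 and a C29F4 fold of 6.89, and the member in the noncoding gene Gm29183 had 25.3 and 6.36. The member between Trappc9 and Kcnk9 was in both groups. An intron of the vomeronasal receptor gene Vmn1r4 had 20.3 and 5.61, and chr10:126680682-126681882, 187460 bp from Atp23, had 20.3 and 9.15.

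Members were mostly distal. The nearest transcription start of any gene was at a median of 15032 bp and the nearest protein-coding start at 43196 bp. Within 1 kb of any start were 287 members, 10.5% (9.41 to 11.7), which was less than the 21.6% (19.0 to 24.4) of unique peaks in all 3 ChIP lists and more than the 7.89% (6.84 to 9.06) of C29F4-alone peaks. Among peaks with a computed chance of 0.95 or more the shares were 8.93% (6.86 to 11.4) and 21.9% (18.4 to 25.7), so the difference from peaks kept in dTAG was present there too. Introns held 39.6% of members (37.8 to 41.5) and 39.7% of peaks in all 3 lists (36.5 to 43.0). Intergenic sequence held 54.4% (52.5 to 56.3) and 51.8% (48.5 to 55.1), with overlapping intervals.

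**Figure D5:**
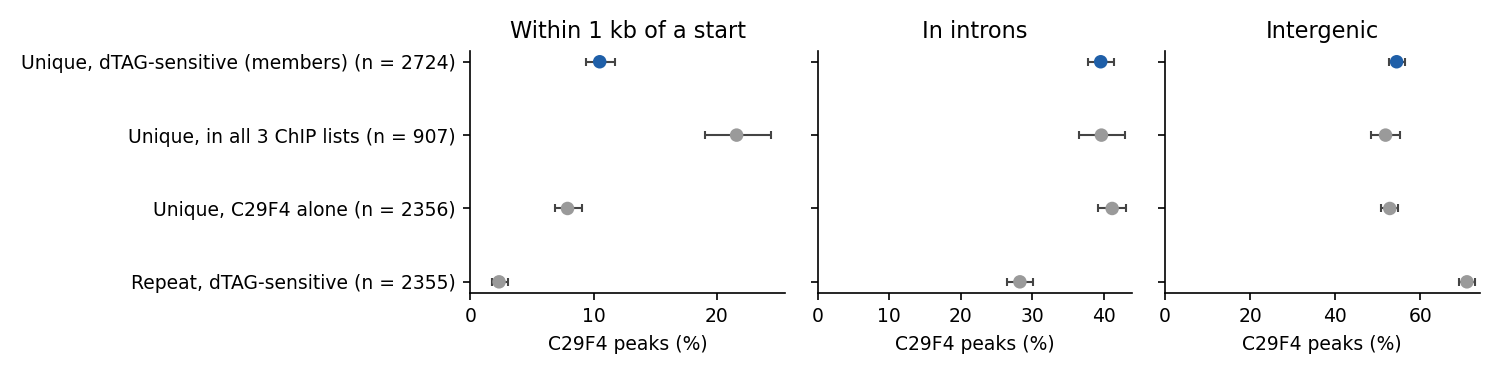
Share of C29F4 peaks within 1 kb of a transcription start, in introns and in intergenic sequence, in percent with exact 95% intervals, for members (blue) and 3 other classes (gray). Near starts the members (10.5%) lie below the peaks of all 3 ChIP lists (21.6%), and in introns both lie at almost the same place (39.6% and 39.7%).

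Members with a long RE1 were more often inside genes than the rest. Introns held 47.5% of them (41.6 to 53.5), against 38.7% (36.8 to 40.7) of members without it. Within 1 kb of a protein-coding start were 12% (8.44 to 16.3) and 6.56% (5.61 to 7.61). Their windows had a median GC of 49.7% against 45.7%, whose part in these differences was not tested.

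The other motifs searched, 26 in all with the RE1 patterns, each on both strands of the 300-base windows, included several that were less frequent in members than in peaks of all 3 lists. The NRF1 site GCGCATGCG, of a factor of housekeeping promoters, was in 0.0734% of members (0.00889 to 0.265) and 0.662% of those peaks (0.243 to 1.43), with overlapping intervals, and in 1.75% of promoters. The ETS site CCGGAAGT was in 0.844% (0.536 to 1.26) and 3.09% (2.06 to 4.43), the E-box CACGTG in 2.90% (2.3 to 3.6) and 5.73% (4.31 to 7.45), and the site TCAAGGTCA of the pluripotency factor ESRRB in 2.72% (2.14 to 3.40) and 4.96% (3.64 to 6.58). Promoters held the ETS site in 3.89% and the E-box in 7.15%. The windows beside held the NRF1 site in 0.0367%, the ETS site in 0.239% and the E-box in 2.83%. Peaks in all 3 lists lay within 1 kb of a start more often than members (21.6% against 10.5%), and the part of this in these differences was not tested. The ESRRB site was in 0.844% of the windows beside and in 0.423% of promoters. Among peaks with a computed chance of 0.95 or more, its shares were 3.63% (2.34 to 5.35) in members and 5.09% (3.38 to 7.33) in all 3 lists, with overlapping intervals.

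The YY1 site AAGATGGCG, bound by a zinc-finger factor of promoters and repeats, was in 2.75% of members (2.17 to 3.44), 3.31% of peaks in all 3 lists (2.24 to 4.69) and 0.202% of windows beside. Promoters held it in 1.40%, and the dTAG-sensitive peaks in soft-masked sequence in 42.9%. The CTCF core CCANNAGNNGGC was in 1.58% (1.1 to 2.1) of members and 1.32% (0.685 to 2.3) of peaks in all 3 lists, with 1.84% in the windows beside and 2.43% in promoters. The AP-1 site TGANTCA was in 12.3% (11.1 to 13.6), against 10.4% (8.46 to 12.5) in all 3 lists, 9.21% beside and 7.81% of promoters. For YY1, CTCF and AP-1 sites the intervals of members and of peaks in all 3 lists overlapped.

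A search without a motif gave some of the same letters. The 4310 words of 7 letters found in 3% or more of member windows were ranked by their ratio to the other 3322 unique C29F4 peaks. Of the 10 highest, 4 match the long RE1 when its free letters N may be any base. Only 2 of the 10, GCTGTCC and CAGCGCC, lie inside its left or right part. These were CGGACAG (3.93% of members and 2.35% of the others, a ratio of 1.67), ACCACGG (1.58), GCTGTCC (14.5% and 9.21%, 1.57) and CAGCGCC (1.57). The other 6 were ATTCCCC (1.66), ACTCCCC (1.63), AGCTGTC (1.59), AGGGATC (1.59), AGATCCC (1.55) and CCACATC (1.53). The ratios were ranked on these peaks and are a description. The ranking left out peaks in soft-masked sequence, and of the dTAG-sensitive ones among these, 39.6% held GCTGTCC on either strand.

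A member lay in the body or the 5 kb upstream of 969 of 21938 protein-coding genes, 4.42%, and 150 genes had a member with a long RE1. Of these 969 genes, 820 had 1 member, 121 had 2 and 28 had 3 or more. They were long, with a median of 115 kb against 16.4 kb for genes without a member. Of genes up to 10 kb, 1.08% had a member, and of genes over 200 kb, 35.0%. Per length the density hardly changed, at 1.1 members per Mb in genes up to 10 kb and 1.1 in genes over 200 kb, with 0.999 over the genome. Counts of genes in a list are therefore given with members per Mb.

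Genes that textbooks list as REST targets had many members for their length. Of 30 such genes 10 had a member (33.3%, beside 4.42% of all protein-coding genes), at 4.23 members per Mb against 0.978 over protein-coding genes, and 7 of the 10 had one with a long RE1. Of the 9 lists, only that of pluripotency genes was denser, described below. With the element were Chgb (a granin of secretory granules, C29F4 fold 3.48), Snap25 (a SNARE protein of synaptic vesicle fusion, 4.96), Vgf (a neuropeptide precursor, 3.66), Celsr3 (a cadherin of axon guidance, 3.11), Nrxn3 (a presynaptic adhesion molecule, 4.74), Syt4 (a synaptotagmin, 4.57) and L1cam (5.97). Without it were the granin genes Scg2 (2.74) and Chga (3.20) and the calcium channel gene Cacna1h (4.38). Nrxn3 is 1612 kb long and had 2 members, both with the element, whereas Syt4 is 9.60 kb long and had 1.

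Other lists of neuronal genes had densities nearer to that of all protein-coding genes. Of 54 synaptic adhesion and scaffold genes, 21 had a member, at 1.19 per Mb, and 4 had one with a long RE1. The highest folds were at Cadm3 (8.41), Ptprd (8.36), Dlgap3 (7.26), Tenm2 (6.47), Dlgap1 (6.42) and Nlgn1 (6.10), adhesion molecules of the synapse except for the scaffold proteins Dlgap1 and Dlgap3. Of 54 neurotransmitter receptor genes, 10 had a member, at 0.880 per Mb. Those with a long RE1 included the glutamate receptor genes Grin3a (3.70) and Grid1 (4.01) and the glycine receptor gene Glra1 (5.39). Those without it included Gabrg3 (5.61), Grm7 (5.17), Grik4 (3.17), Gria1 (3.02) and Grm8 (2.90).

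Of 47 voltage-gated ion channel genes, 10 had a member, at 1.09 per Mb. Those with a long RE1 included the potassium channel genes Kcnh7 (6.25) and Kcnh1 (3.76) and the calcium channel gene Cacna1a (2.37). Without it were Kcnh8 (6.84), Kcnma1 (5.80), Cacna1h (4.38), Kcnq3 (4.10), Scn10a (3.33) and Kcnc2 (2.71). These 3 lists had densities close to the 0.978 of protein-coding genes.

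The median gene of the germ-layer list was shorter, and that of the germline list longer, than the 17.4 kb of all protein-coding genes. Both lists had low counts, with 3 members each, and densities above the 0.978 of protein-coding genes. Of 81 germ-layer transcription factor genes (median length 6.47 kb) 2 had one, 2.47% at 1.70 members per Mb, the neuronal factors Neurod1 (4.02, 1 of its 2 members with a long RE1) and Neurod2 (3.80). Of 55 germline genes (28.0 kb) 3 had one, 5.45% at 1.22 per Mb, Stk31 (5.95), Rpl10l (4.37) and the PIWI gene Piwil1 (3.90). Of 33 genes of zygotic genome activation (median length 4.81 kb) 0 had one, which allows a share of up to 9.09%. Of all protein-coding genes up to 10 kb, 1.08% had a member, so a count of 0 in this short list does not set it apart. Of 28 pluripotency genes 4 had one, Lin28a (6.75, with a long RE1), an RNA-binding regulator of let-7, the DNA demethylation enzyme gene Tet2 (3.48), Dppa5a (2.76) and Tcl1 (2.65), at 4.34 per Mb over 4 members.

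Of 41 genes of the EHMT complex and H3K9 methylation, 5 had a member, 12.2% at 2.28 members per Mb. They were Prdm1 (6.39), a zinc-finger repressor, Atf7ip (4.69), a cofactor of the methyltransferase SETDB1, Cdyl2 (3.94), a chromodomain protein with 2 members, Zfp462 (3.67), a zinc-finger partner of EHMT2, and Kdm3b (2.55), a demethylase of H3K9. None of these 6 members held a long RE1.

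The protein-coding genes with the most members were long ones. Csmd1, a complement-regulating membrane protein of 1643 kb, had 6, of which 3 held a long RE1. Rbfox1, a neuronal splicing factor, had 5 without the element. Fgfr2, a growth factor receptor whose annotation spans 2961 kb, had 5, 2 of them with it. Etl4, Dpp6, Asic2, Pde4d and Macrod2 had 4 each, with the element in 2 of those in the proton-gated channel gene Asic2. Cerkl and Eya1 had 3 each and were the densest of these 10 genes, at 22.9 and 20.5 members per Mb.

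Members were spread over the chromosomes. The Y chromosome held 0 members and 0 unique C29F4 peaks, and on the others their number per Mb ranged from 0.275 on the X chromosome (47 members) to 1.5 on chromosome 8 (194 members). Chromosome 8 held the most unique C29F4 peaks, 570, of which 34.0% were members, and on chromosome 16 the share was 55.3%. Within 10 kb of another member were 253, 9.29% (8.22 to 10.4), in 122 groups, of which 114 were pairs. The largest group had 4 members over chr10:28010776-28015534 near Ptprk, a receptor phosphatase of cell adhesion, none with a long RE1.

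Members just inside the limit on soft-masked bases were near Vmn2r23 (49.8% masked, C29F4 fold 2.79), near Cntn5 (49.9%, 2.55) and on chromosome 18 (49.9%, 7.74). Peaks just outside it, at 50.0%, were in Rbfox1 (3.67) and Tbx3os1 (4.01) and near Pde1a (4.10). None of these 6 peaks held a long RE1.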

How the data were processed

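Peak lists of HA ChIP-seq were analysed. The authors aligned paired-end reads to mm10 with STAR 2.7.10, with each multimapping read assigned to 1 location, removed duplicates (Picard 2.26.0) and blacklisted regions, and called peaks with MACS2 2.2.6, keeping a q-value under 0.05. Random assignment makes the position of a peak among copies uncertain. The deposited fold is the ratio of pileup to background at the summit. The deposited −log10 p and −log10 q belong to the summit, and the deposited score is 10 times −log10 q (C29F4) or 10 times −log10 p (ab9110). The C29F4 list was called on merged samples. Its score differs from that of the ab9110 lists, for a reason the methods do not state, and the use of a control library in peak calling is not given in the sources used here. Separate C29F4 samples, their inputs and the ab9110 DMSO input were not analysed here.

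Overlaps, distances and motifs were computed with Python 3.11.15, pandas 2.3.3, scipy 1.17.1 and pysam 0.24.0 on GRCm38 and GENCODE M21, and promoters came from RefSeq. The pileup and background of each summit were reconstructed from the fold and p-value for 100% of peaks. The lowest background gave the mean coverage, and the steps were tested on simulated data. Intervals are exact 95% binomial. The regions, gene lists, motifs and rules were chosen with earlier results of these data known. The rule named the 8 members with the highest C29F4 fold, the 5 with the highest ab9110 DMSO fold, the 10 with the highest C29F4 fold at protein-coding starts, 3 on either side of 50% soft-masking, the 10 genes with the most members and the listed genes with a member (6 for lists with over 12). Some of the listed genes are not reported here. The long RE1, its spacings, the members with its fewest mismatches, the repeated copies and the shared runs were chosen after seeing the data.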

Additional observations from a re-analysis of the deposited data

How the results depend on the processing

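Each of 11 results was recomputed with other thresholds, overlaps, masking limits, windows or annotations. Of 76 values, 50 moved by less than their counting interval or, for counts, by less than 1.5 times. These results are values of the members alone, so differences from other classes were not recomputed under these settings. With the members whose chance of a call at the dTAG coverage was 0.95 or more, there were 661 members and 272 protein-coding genes, 8.93% lay within 1 kb of a start, the median GC was 47.3%, the E-box was in 1.66% and the RE1 core in 5.14%, and 6.35% lay within 10 kb of another. With under 25% soft-masked bases, 12.4% lay within 1 kb of a start, 43.0% in introns and 49.9% in intergenic sequence, the median GC was 46.7%, the RE1 core was in 5.17% and the long RE1 in 13.2%, and 6.40% lay within 10 kb of another. The long RE1 was in 6.75% with up to 3 mismatches and in 13.1% with up to 5. Within 500 bp of a start lay 7.53% and within 2.5 kb 16.9%. With protein-coding genes alone, 7.12% lay within 1 kb of a start, 31.5% in introns and 64.6% in intergenic sequence. Over whole peaks the median GC was 44.8%, the E-box was in 5.36% and the CTCF core in 2.83%, and around ab9110 summits the E-box was in 3.63% and the CTCF core in 2.2%. Each setting takes in other peaks, distances, letters or bases, and the causes of these shifts were not tested. No replicate could be left out, since each condition was 1 list. No paired analysis was possible because the C29F4 samples were deposited as 1 merged list and the ab9110 lists had 1 sample each. Calls in the dTAG list are limited by its coverage of 1.23, which left the loss of a weak member undetectable.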
